A study of Homo sapiens with 6 samples.

Results

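CFPAC and KP3 are established human pancreatic cancer cell lines, and the 6 libraries analysed here set the 3 libraries of one line against the 3 of the other. Each line was transfected with a control siRNA, an siRNA against NEK6 or an siRNA against NEK7 (mitotic kinases of the NIMA family), which gave 1 poly(A) RNA-seq library for each line and siRNA, and the comparison paired the lines within each siRNA. In bulk RNA, fewer cells expressing a gene and less RNA per cell cannot be told apart. The control libraries are named by a control siRNA in their titles and as WT in the treatment label. A gene was included when it reached 1 FPKM (a fragment count scaled to transcript length and library size) in at least 1 library, which left 14582 of 33097 gene records. The CFPAC line came from a ductal adenocarcinoma in a person with cystic fibrosis. Because each line is 1 cell line cultured under 3 siRNA conditions, a p-value here measures the difference between these lines against its spread over the siRNA conditions, and says nothing of independent cultures or of other tumours. Values for a line are given in the order control, NEK6 and NEK7 siRNA, and every log2 fold change is CFPAC over KP3.

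Pancreatic ductal cancers are commonly sorted by their RNA into a classical type, which keeps a gut-like secretory epithelial program of trefoil peptides, mucins and adhesion proteins, and a basal-like or quasi-mesenchymal type, in which these genes are low and squamous, motility or matrix genes are high. The transcription factors HNF4A, GATA6 and FOXA2 are associated with the classical program, and TP63 and loss of GATA6 with the basal-like one. Duct cells also secrete fluid, bicarbonate and protease inhibitors, and answer interferons and sterol shortage through well-known sets of target genes.

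The line accounted for most of the variance among the libraries. Principal component 1 of log2(FPKM + 1) held 83.9% of the variance and separated the lines, and component 2 held 5.18%. Pairwise correlations across genes, on log2(FPKM + 1), were 0.968 to 0.974 within a line and 0.777 to 0.792 between lines (genes are not independent replicates). Library totals were 59478910 to 66067379 counts, and mitochondrial genes took 15.2 to 17.9% of counts in CFPAC against 11.4 to 13.6% in KP3, a gap whose part in the results below was not tested. The siRNA targets followed their labels: NEK6 was at 15.2, 4.09 and 14.2 FPKM in CFPAC and at 21.3, 6.98 and 22.4 in KP3, and NEK7 was at 14.8, 18 and 2.4 in CFPAC and at 14.7, 12.4 and 5.79 in KP3.

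The lines differed in most genes tested. By edgeR's quasi-likelihood test with siRNA as a block and an adjusted p threshold of 0.05, 8223 genes were called (56.4% of those tested): 4277 were higher in CFPAC (29.3%) and 3946 higher in KP3 (27.1%). Of the called genes 8205 (99.8%) differed in the same direction in all 3 siRNA conditions. The call rests on these same conditions, so this share follows largely from it and is not separate evidence. The FPKM of the 3 libraries of a line did not overlap the other line for 64.2% of genes. The median absolute log2 fold change was 0.74, and 1376 genes (9.44%) were called and at least 4-fold higher in CFPAC, 887 (6.08%) in KP3 and 15.5% in either line. Of the 11581 protein-coding genes tested, 61.8% were called, 32.5% higher in CFPAC and 29.3% higher in KP3. Called and at least 4-fold apart were 14.8% of them. Most list members are protein-coding, so these shares are the closer background for the lists. A list of genes is therefore read below against these backgrounds, and a share near them says nothing about the list.

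Large differences took up a greater share of the genes annotated to the cell surface or outside the cell than of those annotated inside it. By the gene ontology terms in the deposited table, the share of genes called and at least 4-fold apart was 52.2% of 69 extracellular matrix genes, 35.9% of 432 extracellular space genes, 33.1% of 139 cell surface genes and 24.1% of 1690 plasma membrane genes, beside 15.5% of all genes. It was 10.4% of 3210 cytosol genes, 8.56% of 3904 nucleus genes, 5.77% of 1109 mitochondrion genes and 1.67% of 180 ribosome genes. These terms were read for protein-coding genes, of which 14.8% were called and at least 4-fold apart.

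**Figure D1:**
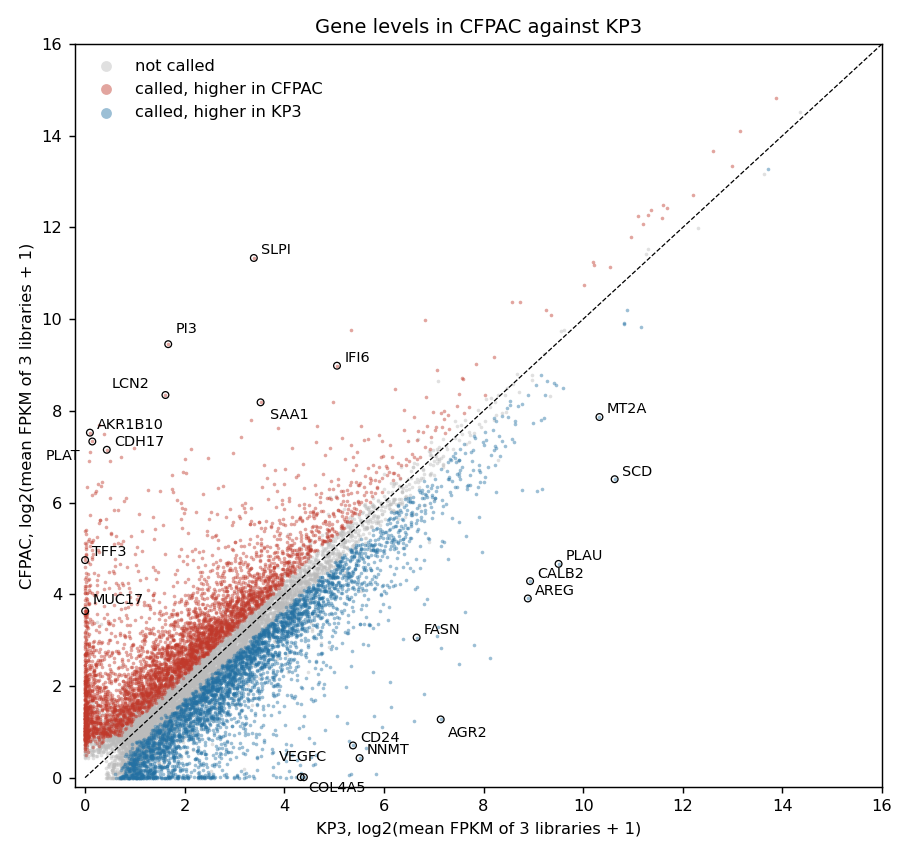
Mean level of each gene tested in KP3 (x axis) and CFPAC (y axis), both as log2 of the mean FPKM of 3 libraries plus 1. Colour gives the edgeR call, the dashed line marks equal levels, and a few genes are circled and labelled; SLPI, PI3 and AKR1B10 lie far above the line and SCD, PLAU and AGR2 far below it.

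Of the classical genes that were expressed well enough to be tested, most were higher in CFPAC, while the basal-like list was split between the lines. Of the 24 genes of the Moffitt classical list, 23 were matched and 13 were tested. Of these, 11 were called higher in CFPAC (84.6%) and 2 higher in KP3 (15.4%), all at least 4-fold apart. Their median log2 fold change was 5.74. The 13 had a median of 12.9 FPKM in CFPAC and 0.108 in KP3, so most passed the 1 FPKM filter through CFPAC. Members low in both lines were left out, so the 4-fold count and the median hold for tested members only. Of the 22 genes of the Collisson classical list, 17 were tested, with 11 higher in CFPAC (64.7%), 4 higher in KP3 (23.5%) and a median of 4.19. Of the 25 genes of the Moffitt basal-like list, 17 were tested, with 5 higher in each line, 7 not called and a median of 0.12. The 14 tested members of the Collisson quasi-mesenchymal list gave 7 higher in CFPAC, 3 higher in KP3 and a median of 0.52. These lists share members, so their counts are not separate evidence.

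Trefoil factors, small mucus-binding peptides of gut epithelium, were read in CFPAC and not in KP3. TFF3 was at 27.6, 29.5 and 20.2 FPKM in CFPAC and at 0 counts in every KP3 library, which puts it at least 783-fold higher in CFPAC against a floor of 3 counts per library. TFF2 was at 28.6, 14.7 and 13.7 FPKM and again at 0 counts in KP3, at least 346-fold higher. The gut cadherin CDH17 was at 135, 131 and 157 FPKM in CFPAC and 0.182, 0.241 and 0.636 in KP3 (log2 fold change 8.83, SE 0.41, edgeR adjusted p = 0.000211). The tetraspanin TSPAN8 averaged 32.3 FPKM in CFPAC and 0.073 in KP3, the lectin LGALS4 27.1 and 0.108, and the adhesion glycoprotein CEACAM6 17.4 and 0.591, and no library of KP3 reached a CFPAC library for any of them. Other genes typical of the classical type were near 0 in both lines: TFF1 reached at most 0.307 FPKM, CEACAM5 0.142 and CTSE 0.0727, and none of these was tested.

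AGR2, a disulfide isomerase that folds mucins in the endoplasmic reticulum, ran the other way. It was at 1.17, 1.04 and 2.01 FPKM in CFPAC and 88.1, 95.4 and 235 in KP3 (log2 fold change -6.48, SE 0.19, edgeR adjusted p = 0.000107). Every KP3 library stood far above every CFPAC library, and the NEK7 siRNA library was the highest in each line. KRT20, a keratin of gut epithelium, averaged 0.115 FPKM in CFPAC and 2.43 in KP3.

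The 5 basal-like genes called higher in KP3 included AREG, FGFBP1 and UCA1. AREG, a ligand of the EGF receptor, was at 12, 18.5 and 11.3 FPKM in CFPAC and 462, 579 and 378 in KP3 (log2 fold change -5.05, SE 0.12, edgeR adjusted p = 9.66e-05). FGFBP1, which carries fibroblast growth factors, averaged 12.8 FPKM in CFPAC and 111 in KP3, and the long noncoding RNA UCA1 0.451 and 12.5. On the CFPAC side stood FAM83A (83.4 against 12.9 FPKM), the focal adhesion gene TNS4 (6.52 against 0.0238) and the retinol dehydrogenase DHRS9 (21.5 against 0.402). Basal keratins of the list did not separate the lines: KRT15 averaged 3.96 and 4.83 FPKM, KRT17 1.53 and 1.38, and KRT6A 5.53 and 3.69, none of them called.

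**Figure D2:**
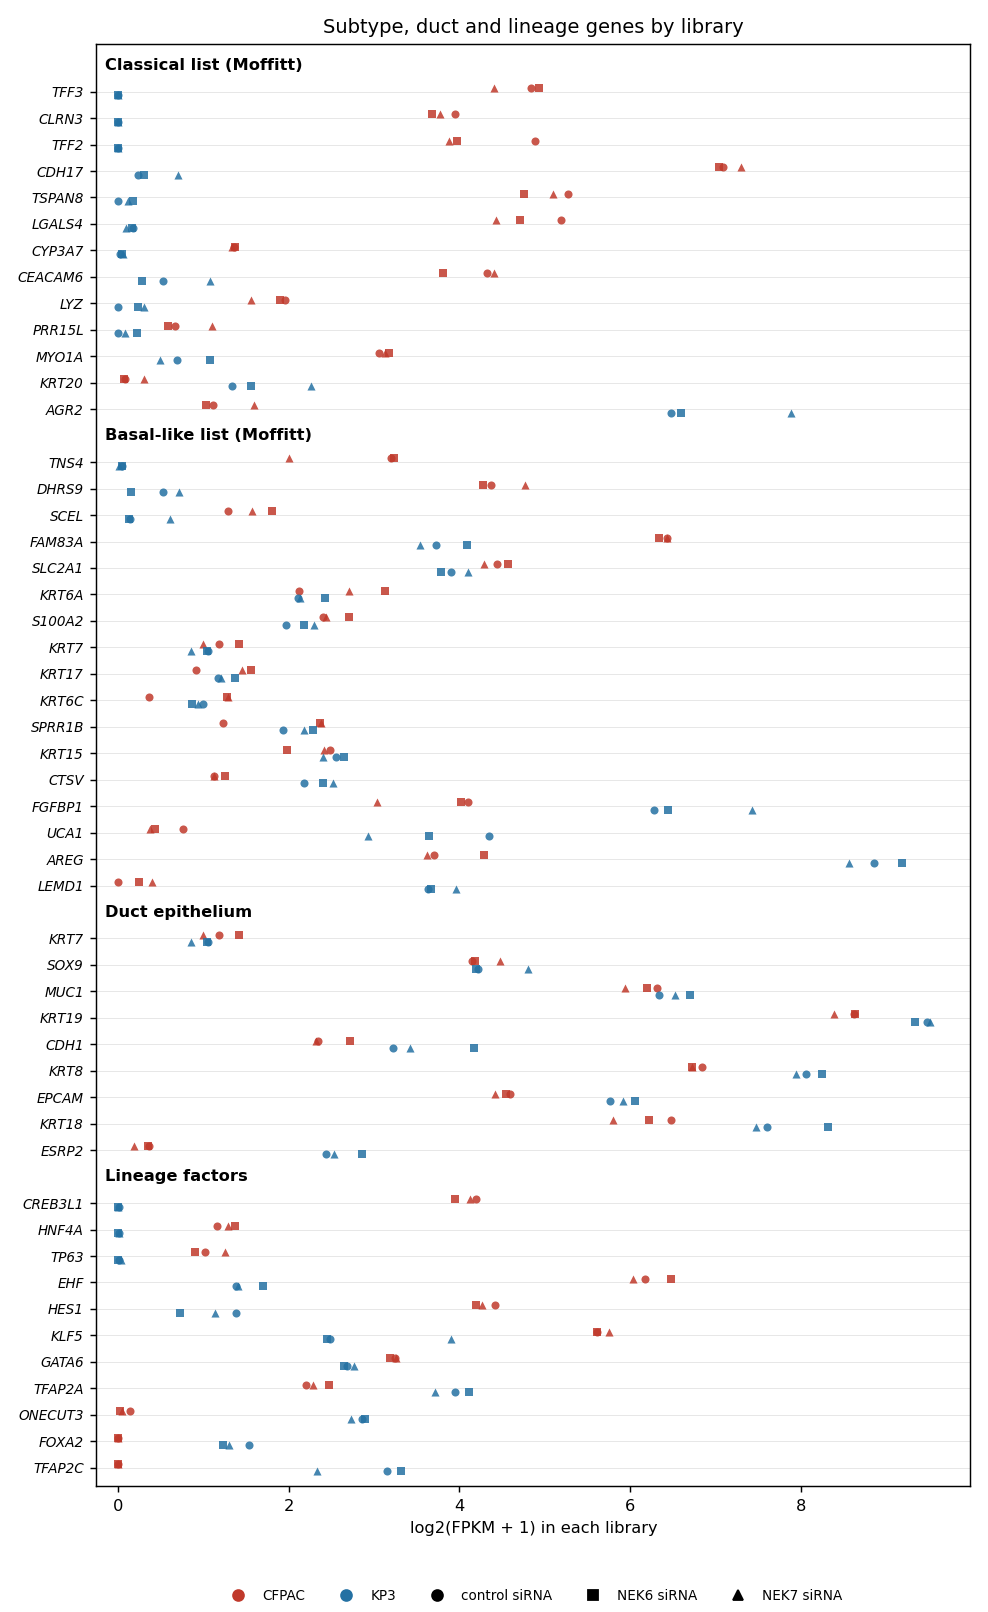
Level of subtype, duct and lineage genes in each library, as log2 of FPKM plus 1 on the x axis, with CFPAC in red, KP3 in blue and the siRNA shown by the symbol. The tested members of the Moffitt lists are shown in full, ordered by log2 fold change; most classical genes lie to the right in CFPAC, with AGR2 and KRT20 reversed.

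Both lines carried the simple-epithelial keratins of duct cells, at higher levels in KP3. KRT19 was at 393, 396 and 335 FPKM in CFPAC and 715, 644 and 729 in KP3 (log2 fold change -0.85, SE 0.12, edgeR adjusted p = 0.00329). KRT8 averaged 108 FPKM in CFPAC and 272 in KP3, KRT18 72.3 and 230, and the adhesion protein EPCAM 22.0 and 59.6. Of 11 duct markers tested, 7 were called higher in KP3 (63.6%, all genes 27.1%) and 0 higher in CFPAC (median log2 fold change -1.26). MUC1, SOX9, KRT7 and CLDN4 were not called. The duct keratin KRT7 averaged 1.31 and 0.987 FPKM, close to the inclusion level, which sets it apart from KRT8, KRT18 and KRT19 in both lines. CFTR was not analysed here.

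Of 23 lineage transcription factors tested, 11 were higher in CFPAC (47.8%, all genes 29.3%), 4 higher in KP3 (17.4%, all genes 27.1%) and 8 not called. The hepatocyte and gut factor HNF4A was at 1.24, 1.58 and 1.44 FPKM in CFPAC and at 4, 0 and 8 counts in KP3. This is a ratio of 205 (95% interval 117 to 398 from counting error alone). Counts this low were often multiples of 4, so such intervals may be too narrow. The epithelial ETS factor EHF averaged 74.8 FPKM in CFPAC and 1.84 in KP3, KLF5, a factor of gut crypts, 49.5 and 7.69, and the Notch target HES1 18.7 and 1.15. CREB3L1, a membrane-bound factor released under secretory stress, was at 17.3, 14.5 and 16.5 FPKM in CFPAC and at 4, 0 and 0 counts in KP3. These factors did not overlap between the lines in any library.

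GATA6 differed by little: 8.52, 8.14 and 8.6 FPKM in CFPAC and 5.44, 5.25 and 5.81 in KP3 (log2 fold change 0.66, SE 0.11, edgeR adjusted p = 0.00588). FOXA2, a pioneer factor of endoderm, was at 0 counts in all CFPAC libraries and at 1.89, 1.34 and 1.46 FPKM in KP3. Its relative FOXA1 averaged 0.865 FPKM in CFPAC and 0.268 in KP3. The AP-2 factor TFAP2C was at 0 counts in CFPAC and at 7.87, 8.99 and 4.02 FPKM in KP3, at least 497-fold higher there, and TFAP2A averaged 4.02 and 14.3 FPKM. TP63, the master factor of squamous epithelium, averaged 1.09 FPKM in CFPAC and 0.0129 in KP3. SOX9 (18.4 and 20.6 FPKM), the duct progenitor factor, and NR5A2 (2.75 and 2.91), a nuclear receptor of the exocrine pancreas, were not called.

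Squamous markers were low in both lines with a few exceptions in CFPAC. Of 12 tested, 5 were higher in CFPAC (41.7%, all genes 29.3%), 0 higher in KP3 (all genes 27.1%) and 7 not called. KRT16, a keratin of stressed epidermis, was at 37.0, 55.7 and 33.1 FPKM in CFPAC and 1.61, 1.65 and 1.71 in KP3. The desmosomal cadherins DSG3 (2.84 against 0.0517 FPKM) and DSC3 (1.02 against 0.00437) and the keratinocyte gene TRIM29 (3.74 against 0.0293) were higher in CFPAC, beside TP63. KRT5 averaged 1.63 and 1.47 FPKM and KRT14 2.73 and 2.20, with overlapping libraries.

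HOX genes, which mark position along the body axis, were divided between the lines. Of 24 tested, 16 were higher in CFPAC (66.7%, all genes 29.3%), 7 higher in KP3 (29.2%, all genes 27.1%) and 1, HOXA3, was not called. The KP3 side held HOXA4, HOXA5, HOXA6, HOXB2, HOXB3, HOXB4 and HOXB6. The CFPAC side held the posterior genes tested but also HOXA2, HOXB5 and HOXB7, so that neighbours within a cluster went in opposite directions. HOXA11 averaged 7.08 FPKM in CFPAC and 0.00656 in KP3, HOXA13 4.51 and 0.172, HOXB13 2.00 and 0.0108, and HOXC10 10.3 and 0.0206. HOXB4 was at 8.88, 12.7 and 14.6 FPKM in CFPAC and 74.1, 57.8 and 69.7 in KP3 (log2 fold change -2.45, SE 0.21, edgeR adjusted p = 0.000809).

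Epithelial and mesenchymal genes were expressed in both lines. KP3 was higher in 17 of 33 epithelial junction genes tested (51.5%) and CFPAC in 9 (27.3%), with a median log2 fold change of -0.49. CFPAC was higher in 18 of 28 mesenchymal genes tested (64.3%) and KP3 in 6 (21.4%), with a median of 0.83. Over all genes, 29.3% were higher in CFPAC and 27.1% in KP3. The E-cadherin gene CDH1 was at 4.07, 5.61 and 4 FPKM in CFPAC and 8.35, 17.0 and 9.68 in KP3 (log2 fold change -1.26, SE 0.14, edgeR adjusted p = 0.00181). The N-cadherin gene CDH2 was a KP3 gene too, at 4, 0 and 4 counts in CFPAC and 7.84, 6.74 and 10.6 FPKM in KP3, a ratio of 1936 (95% interval 982 to 4484, counting error alone). KP3 therefore held more RNA of both cadherins.

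The mesenchymal transcription factors were divided. SNAI2 averaged 20.4 FPKM in CFPAC and 0.191 in KP3, ZEB1 5.72 and 3.45, and TWIST1 0.0385 and 5.87. The intermediate filament gene VIM was at 231, 204 and 172 FPKM in CFPAC and 130, 101 and 114 in KP3, high in both lines. ITGA5, the fibronectin receptor subunit, averaged 29.5 FPKM in CFPAC and 0.215 in KP3, and the tropomyosin TPM2 101 and 2.89. LOXL2, a collagen crosslinking enzyme (1.3 against 37.2), and the hyaluronan receptor CD44 (12.7 against 62.0) were higher in KP3.

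Among junction genes, DSG2, a desmosomal cadherin, was at 54.1, 73.0 and 85.1 FPKM in CFPAC and 0.0326, 0.0492 and 0.210 in KP3 (log2 fold change 9.77, SE 0.52, edgeR adjusted p = 0.000274). The matriptase gene ST14, a membrane protease of epithelia, averaged 46.0 and 0.210 FPKM, whereas the gene for its inhibitor SPINT1 averaged 2.30 and 22.1. CLDN3 (1.19 against 19.8), CLDN1 (26.3 against 99.4) and CLDN7 (29.1 against 76.8), tight junction proteins, were higher in KP3, as was the epithelial splicing factor ESRP2 (0.235 against 5.17). CLDN4 was not called, and its CFPAC libraries disagreed: 0.197, 27.3 and 0.0323 FPKM, so that its CFPAC mean of 9.17 comes from the NEK6 siRNA library.

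Integrin chains differed in both directions. ITGB4, the hemidesmosome subunit, was at 69.3, 89.4 and 63.6 FPKM in CFPAC and 251, 404 and 254 in KP3 (log2 fold change -1.97, SE 0.11, edgeR adjusted p = 0.000278). ITGA10, a collagen receptor chain best known from cartilage, averaged 1.37 and 96.0 FPKM, and the collagen receptor chain ITGA2 21.7 and 0.471. Of 15 integrin genes tested, 7 were higher in CFPAC (46.7%, all genes 29.3%) and 6 in KP3 (40.0%, all genes 27.1%).

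CFPAC was higher for several surface proteins known from the intestine. The brush-border peptidase DPP4 was at 53.9, 48.1 and 54.8 FPKM in CFPAC and 0.0612, 0.0999 and 0.0501 in KP3 (log2 fold change 9.57, SE 0.29, edgeR adjusted p = 0.000107). Transmembrane mucins followed the same direction: MUC13 averaged 77.9 and 2.33 FPKM, and MUC17 was at 10.2, 12.1 and 11.9 FPKM in CFPAC and at 0, 0 and 4 counts in KP3, a ratio of 9831 (95% interval 3839 to 36083, counting error alone). Of 15 mucin and trefoil genes matched, 7 were tested. All 7 had libraries that did not overlap, beside 64.2% of all genes. Of the 7, 6 were called higher in CFPAC and MUC1 (70.5 against 91.5 FPKM) was not called. Their median was 0.0478 FPKM in KP3, so most passed the 1 FPKM filter through CFPAC. Members low in both lines were left out, among them MUC2 (at most 0.102 FPKM), MUC4 (0.0878), MUC5AC (0.0745) and MUC16 (0.0219).

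Of 44 tumour surface antigens tested, 21 were higher in CFPAC (47.7%, all genes 29.3%) and 10 higher in KP3 (22.7%, all genes 27.1%). MSLN, the gene of mesothelin, was high in both lines, at 186, 190 and 195 FPKM in CFPAC and 128, 144 and 118 in KP3 (log2 fold change 0.59, SE 0.10, edgeR adjusted p = 0.00663). The complement shield CD55 (54.4 against 3.66), the tetraspanin CD9 (54.6 against 4.74) and tissue factor F3 (28.5 against 0.995) were higher in CFPAC. CD24, a small mucin-like protein, was at 0.605, 0.345 and 0.927 FPKM in CFPAC and 24.2, 13.2 and 84.5 in KP3, and its KP3 libraries spread widely. The adhesion molecules ALCAM (2.93 against 36.8) and CDCP1 (17.2 against 61.4) were also higher in KP3.

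Among growth factor receptors, EGFR averaged 39.8 FPKM in CFPAC and 31.8 in KP3 (log2 fold change 0.36, SE 0.09, edgeR adjusted p = 0.0247). MET, the receptor of hepatocyte growth factor, was at 78.5, 86.4 and 70.0 FPKM in CFPAC and 21.5, 18.5 and 20.2 in KP3, with no overlap. ROR1 (1.57 against 12.3) and FGFR4 (1.31 against 7.19) were higher in KP3. FLT3, a receptor of blood progenitors, was at 0 counts in CFPAC and averaged 1.71 FPKM in KP3, whereas EPHB2, a crypt receptor for ephrins, averaged 2.68 FPKM in CFPAC and had 4, 0 and 0 counts in KP3. Of 23 tyrosine kinase receptors tested, 10 were higher in CFPAC (43.5%, all genes 29.3%) and 7 in KP3 (30.4%, all genes 27.1%).

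Of 32 G protein-coupled receptors tested, 12 were higher in CFPAC and 16 in KP3, beside 29.3% and 27.1% of all genes. The share called was 87.5%, beside 56.4% of all genes. The R-spondin receptor LGR6 was at 12.4, 13.6 and 14.9 FPKM in CFPAC and at 0 counts in KP3, at least 1625-fold higher, and the scavenger of CXCL12, ACKR3, averaged 43.4 and 0.338 FPKM. GPR37 was at 0, 4 and 0 counts in CFPAC and averaged 7.23 FPKM in KP3. GPRC5A, a retinoic acid-induced receptor, averaged 81.9 FPKM in CFPAC and 211 in KP3.

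The antiproteases SLPI, PI3 and WFDC2 were higher in CFPAC. SLPI, the secretory leukocyte protease inhibitor, was at 2591, 2996 and 2150 FPKM in CFPAC and 6.37, 15.2 and 6.82 in KP3 (log2 fold change 8.23, SE 0.29, edgeR adjusted p = 0.000129). The elastase inhibitor PI3 was at 669, 881 and 550 FPKM in CFPAC and 1.75, 3.41 and 1.39 in KP3. WFDC2, a relative of both, averaged 118 and 0.0497 FPKM. In both lines the NEK6 siRNA library was the highest for all 3 genes, and the lines were far apart in every siRNA condition. SLPI, PI3 and WFDC2 all lie on chromosome 20, in the same WAP-domain gene family.

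The lines used different plasminogen activators. PLAT, the tissue-type activator, was at 179, 121 and 180 FPKM in CFPAC and 0.110, 0.0740 and 0.133 in KP3 (log2 fold change 10.57, SE 0.15, edgeR adjusted p = 9.66e-05). PLAU, the urokinase-type activator, was at 23.1, 28.9 and 21.1 FPKM in CFPAC and 968, 572 and 637 in KP3 (log2 fold change -4.83, SE 0.25, edgeR adjusted p = 0.000264). The gene of the urokinase receptor, PLAUR, averaged 16.8 and 10.1 FPKM. CFPAC thus had more RNA for the tissue-type activator and KP3 for urokinase.

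Other proteases and inhibitors also differed. Of 57 tested, 33 were higher in CFPAC and 18 in KP3, and 25 and 10 were at least 4-fold apart (61.4% beside 15.5% of all genes). CFPAC was higher for matrilysin MMP7 (33.1 against 0.499 FPKM), cathepsin S (CTSS, 30.4 against 0.201), the kallikrein KLK10 (47.9 against 0.234) and maspin (SERPINB5, 34.4 against 0.108). PRSS3 was at 39.0, 38.3 and 39.6 FPKM in CFPAC and at 0, 0 and 6 counts in KP3, and it belongs to the trypsinogen family of near-identical genes, so its reads may be shared. KP3 was higher for the proteoglycan SPOCK1 (0.0637 against 39.4), the inhibitor TFPI2 (0.0756 against 8.45) and TIMP1 (90.6 against 156).

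Complement and acute-phase genes leaned to CFPAC. Of 26 tested, 17 were higher there (65.4%, all genes 29.3%) and 3 higher in KP3 (11.5%, all genes 27.1%), with a median log2 fold change of 2.61. The iron-binding lipocalin LCN2 was at 371, 278 and 324 FPKM in CFPAC and 0.810, 3.36 and 2.02 in KP3 (log2 fold change 7.49, SE 0.59, edgeR adjusted p = 0.000666). Serum amyloid A1 (SAA1) averaged 290 and 10.5 FPKM, with SAA2, a near-identical neighbour that may share its reads, at 37.6 and 0.900. Complement factor B (CFB) averaged 48.9 and 0.337, whereas C3 was high in both lines at 56.6 and 37.9 with overlapping libraries.

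Cytokines leaned the same way, with 18 of 29 tested higher in CFPAC (62.1%, all genes 29.3%) and 5 higher in KP3 (17.2%, all genes 27.1%). IL1A was at 37.2, 57.5 and 29.7 FPKM in CFPAC and at 8, 0 and 0 counts in KP3, a ratio of 2454 (95% interval 1245 to 5686, counting error alone). IL1B averaged 21.0 and 0.126 FPKM, the neutrophil chemokine CXCL5 39.5 and 0.427, and the death ligand TNFSF10 53.0 and 1.13. CXCL8 was present in both lines at 42.7 and 10.6. CX3CL1, a membrane-tethered chemokine, was the clear KP3 gene, at 0.281, 0.389 and 0.210 FPKM in CFPAC and 4.33, 24.1 and 17.7 in KP3, lowest in the KP3 control library.

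EGF-family ligands differed between the lines. Beside AREG, KP3 had more TGFA (13.1 against 21.8 FPKM), while EREG was at 14.4, 29.5 and 8.03 FPKM in CFPAC and 0.156, 0.285 and 0.0927 in KP3 (log2 fold change 6.59, SE 0.13, edgeR adjusted p = 9.66e-05). EREG and AREG are neighbouring genes on chromosome 4 that encode ligands of the same receptor. With the AREG values given above, KP3 held mainly AREG, and CFPAC held both genes at similar FPKM. In both lines both genes were highest in the NEK6 siRNA library and lowest in the NEK7 siRNA library.

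VEGFC, the lymphatic growth factor, was at 0, 0 and 4 counts in CFPAC and at 17.8, 14.7 and 27.4 FPKM in KP3, a ratio of 2818 (95% interval 1100 to 10344, counting error alone), whereas VEGFA averaged 3.85 and 4.34 and was not called. The stress cytokine GDF15 averaged 3.95 FPKM in CFPAC and 53.8 in KP3, and the activin subunit INHBB 0.0269 and 7.33. CFPAC was higher for the IGF-binding protein IGFBP6 (118 against 0.408), ANGPTL2 (31.6 against 0.0133) and Sonic hedgehog, SHH (7.90 against 0.437). IGFBP3 was at 480, 501 and 215 FPKM in CFPAC and 69.2, 50.8 and 286 in KP3 and was not called, and the NEK7 siRNA library of each line fell within the range of the other line. Over the 56 growth factors and morphogens tested, 29 were higher in CFPAC and 20 in KP3. Called and at least 4-fold apart were 51.8%, beside 15.5% of all genes.

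Matrix genes divided evenly, with 20 of 48 tested higher in CFPAC and 21 in KP3. Called and at least 4-fold apart were 54.2%, beside 15.5% of all genes. Of the chains of epithelial laminin, neither named here was called: LAMB3 averaged 47.3 and 48.4 FPKM, with a log2 fold change of 0.01 (SE 0.10), and LAMA3 2.52 and 2.27, with 0.20 (SE 0.15). The hemidesmosome collagen COL17A1 averaged 95.6 FPKM in CFPAC and 2.33 in KP3, and the basement membrane collagen COL4A5 0.00801 and 19.1.

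LUM and DCN, small proteoglycans best known from fibroblasts, were CFPAC genes. LUM was at 96.8, 137 and 143 FPKM in CFPAC and 0.682, 0.637 and 0.650 in KP3 (log2 fold change 7.6, SE 0.20, edgeR adjusted p = 9.66e-05), and DCN averaged 8.27 and 0.168. The other fibroblast markers did not move with them: COL1A1 averaged 2.67 and 2.38 FPKM, COL1A2 1.2 and 1.01 and COL3A1 1.80 and 1.49, none called. ACTA2, smooth muscle actin, was higher in KP3 at 2.51 and 4.81, and PDGFRA, PDGFRB, FAP, THY1, RGS5 and POSTN reached 1 FPKM in no library. The summed FPKM of the 12 fibroblast genes was 113 to 164 in CFPAC and 10.8 to 12 in KP3.

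**Figure D3:**
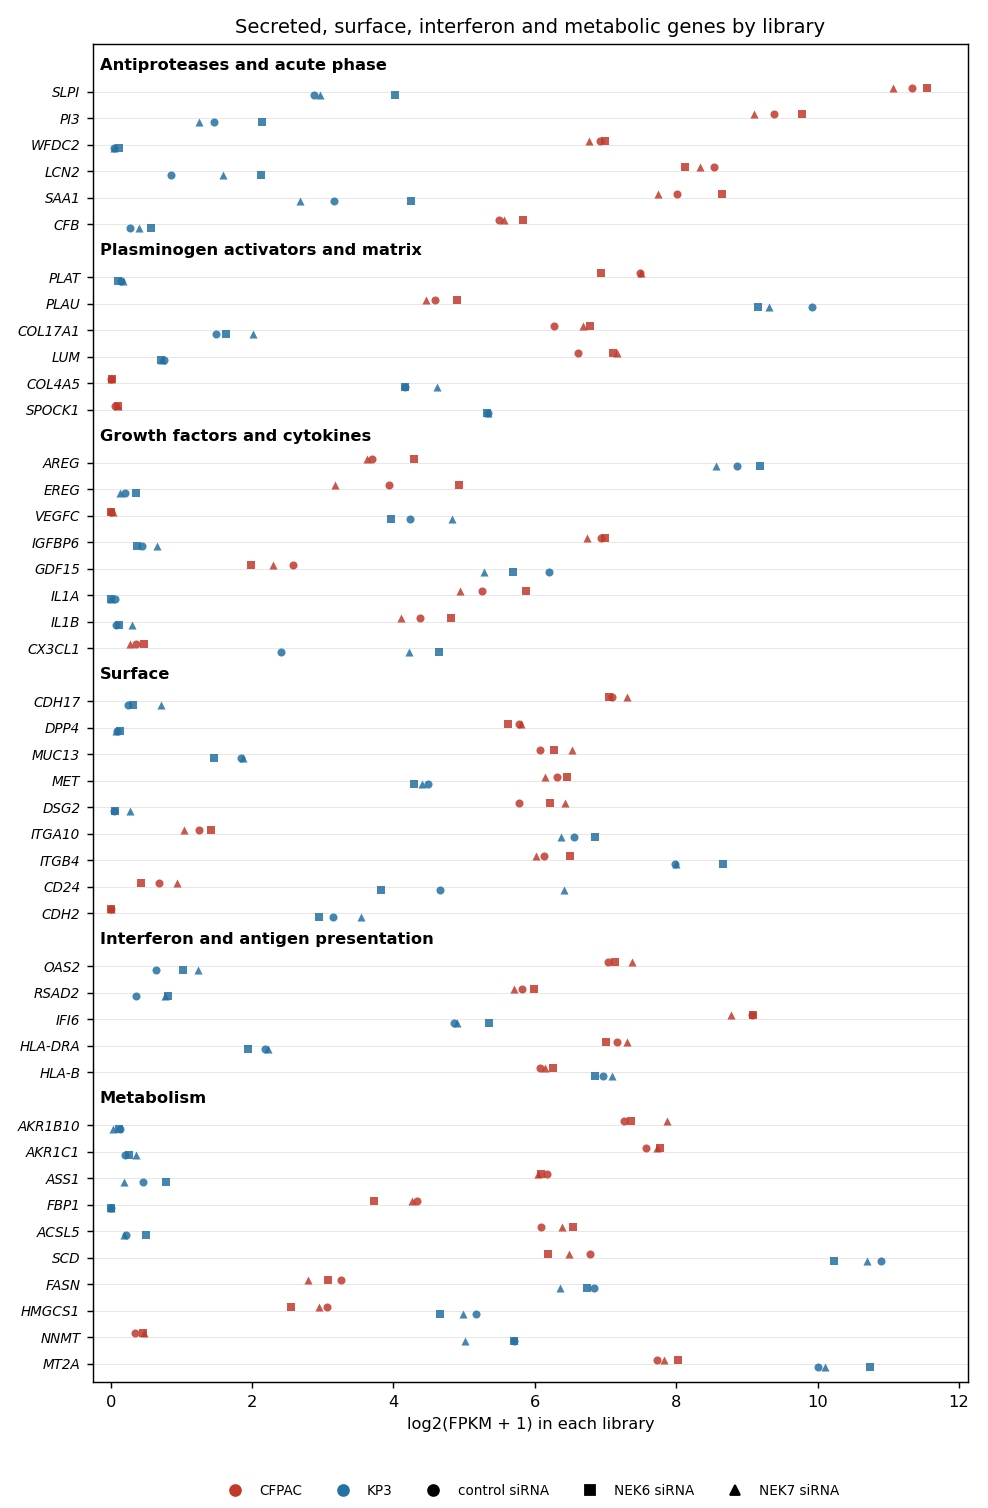
Level of secreted, surface, interferon and metabolic genes in each library, as log2 of FPKM plus 1 on the x axis, with CFPAC in red, KP3 in blue and the siRNA shown by the symbol. The lines separate in every library for the genes shown; PLAT and PLAU, and EREG and AREG, lie on opposite sides.

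Interferon-stimulated genes were mostly higher in CFPAC. Type I interferons act through STAT proteins and IRF9 on the interferon-stimulated response element, while class II antigen presentation runs through the coactivator CIITA. Of 59 genes tested, 47 were higher in CFPAC (79.7%, all genes 29.3%) and 5 higher in KP3 (8.47%, all genes 27.1%). The median log2 fold change was 1.73, and 26 were at least 4-fold higher in CFPAC against 0 in KP3. The response element, searched as GAAANNGAAA on both strands in RefSeq promoters (GRCh38.p14, 250 bases before to 50 bases after the gene start), was found in 22 of the 43 members with an entry (51.2%), and in 2.85% of 9267 protein-coding genes tested and 3.65% of all 27305 promoters of the table. Stretches of 60 bases on the gene's strand are shown for a few members, whose values are given below, with the match in capitals (a match on the other strand reads as its reverse complement), because they carry the element that names this group:
IFI6, chr1:27672314-27672373, minus strand: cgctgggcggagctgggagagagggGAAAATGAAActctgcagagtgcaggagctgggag
ISG15, chr1:1013359-1013418, plus strand: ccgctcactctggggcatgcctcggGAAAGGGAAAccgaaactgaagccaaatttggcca
IFIT3, chr10:89327816-89327875, plus strand: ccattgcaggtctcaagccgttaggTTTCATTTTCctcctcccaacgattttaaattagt
OAS3, chr12:112938306-112938365, plus strand: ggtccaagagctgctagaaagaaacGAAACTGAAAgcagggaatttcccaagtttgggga
IFIT1, chr10:89392482-89392541, plus strand: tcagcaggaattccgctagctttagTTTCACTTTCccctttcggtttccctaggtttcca
TAPBP, chr6:33314064-33314123, minus strand: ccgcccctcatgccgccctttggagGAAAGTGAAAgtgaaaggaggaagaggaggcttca
IFITM1, chr11:313975-314034, plus strand: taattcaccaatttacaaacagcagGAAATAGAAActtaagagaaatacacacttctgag
The first 5 belong to genes higher in CFPAC and the last 2 to genes higher in KP3, so the motif was found in genes of both directions. TAPBP, which edits the peptides of class I molecules, was at 40.6, 30.5 and 36.3 FPKM in CFPAC and 76.2, 100 and 71.8 in KP3 (log2 fold change -1.16, SE 0.19, edgeR adjusted p = 0.00546). IFITM1, which blocks virus entry, was at 350.0, 266 and 578 FPKM in CFPAC and 518, 626 and 723 in KP3 (log2 fold change -0.66, SE 0.19, edgeR adjusted p = 0.0356), and its libraries overlapped between the lines.

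The antiviral genes were high in all CFPAC libraries. IFI6, a mitochondrial survival protein, was at 537, 543 and 436 FPKM in CFPAC and 28.1, 39.7 and 29 in KP3 (log2 fold change 4.02, SE 0.14, edgeR adjusted p = 0.000129). OAS2, an activator of RNase L, was at 130, 139 and 165 FPKM in CFPAC and 0.566, 1.04 and 1.36 in KP3. RSAD2 (viperin) averaged 56.4 and 0.579 FPKM, OAS3 144 and 16.9, IFIT3 197 and 13.7, MX1 79.4 and 10.7, and the ubiquitin-like modifier ISG15 355 and 73.7.

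In KP3 these genes were not silent, and the 8 named here were lowest in the KP3 control library. IFIT1 was at 9.58, 20.2 and 15.8 FPKM in KP3 and MX1 at 6.71, 13.7 and 11.8, beside 101, 117 and 99.5 and 75.6, 81.1 and 81.6 in CFPAC. Of the signal carriers, IRF7 averaged 24.5 FPKM in CFPAC and 7.69 in KP3, IRF9 5.63 and 2.71, STAT2 15.4 and 9.55, and the receptor IFNAR1 8.66 and 6.70.

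Of 52 tested genes annotated to antigen processing and presentation, 28 were higher in CFPAC and 7 in KP3, beside 29.3% and 27.1% of all genes. The class II gene HLA-DRA was at 143, 128 and 157 FPKM in CFPAC and 3.54, 2.84 and 3.67 in KP3 (log2 fold change 5.45, SE 0.11, edgeR adjusted p = 9.66e-05), the invariant chain CD74 averaged 71.7 and 4.17, and CIITA 2.82 and 0.134. The class I gene HLA-B was at 66.6, 75.3 and 69.9 FPKM in CFPAC and 124, 114 and 135 in KP3 (log2 fold change -0.77, SE 0.11, edgeR adjusted p = 0.0036), and HLA-C and TAPBP were also higher in KP3. B2M averaged 143 and 166 FPKM and was not called. HLA genes are near-identical and vary between people, so reads may be divided between them or lost, and HLA levels are uncertain for this reason.

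TGF-beta and BMP genes leaned to CFPAC, and most other pathway lists were divided. Of 40 TGF-beta and BMP genes tested, 20 were higher in CFPAC and 7 higher in KP3, with 12 and 2 at least 4-fold apart. Over all genes, 29.3% were higher in CFPAC and 27.1% in KP3, and 15.5% were called and at least 4-fold apart. The feedback inhibitors PMEPA1 (23.5 against 0.512 FPKM), SMAD7 (1.21 against 0.0409) and SMAD6 (5.45 against 0.338), the decoy receptor BAMBI (11.7 against 0.640) and the target TGFBI (35.8 against 1.6) were higher in CFPAC. The ubiquitin ligase SMURF1 was at 155, 169 and 194 FPKM in CFPAC and 7.58, 6.74 and 8.77 in KP3 (log2 fold change 4.53, SE 0.12, edgeR adjusted p = 9.66e-05). The transducer SMAD4 was low in both lines, at 1.33, 1.74 and 1.64 and 2.52, 2.41 and 2.29, while SMAD3 (26.4 and 26.7) and TGFBR2 (37.6 and 44.7) were not called.

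Of 40 EGF receptor and MAPK output genes tested, 16 were higher in CFPAC (40.0%), 14 in KP3 (35.0%) and 10 not called. Over all genes the shares were 29.3% and 27.1%. The ERK phosphatases were exchanged: DUSP6 was at 27.6, 40.4 and 23.5 FPKM in CFPAC and 3.97, 2.86 and 4.05 in KP3 (log2 fold change 3.09, SE 0.29, edgeR adjusted p = 0.00104), DUSP5 at 0.963, 1.51 and 0.953 in CFPAC and 63.9, 56.2 and 62.7 in KP3 (log2 fold change -5.72, SE 0.24, edgeR adjusted p = 0.000161), and DUSP4 averaged 19.7 and 19.8. FOS (5.58 against 0.606) and EGR1 (6.18 against 1.21), early transcription factors of the pathway, were higher in CFPAC. The late factor FOSL1 (24.5 against 87.4) was higher in KP3.

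In the WNT list 11 of 29 tested genes were higher in CFPAC (37.9%, all genes 29.3%) and 9 in KP3 (31.0%, all genes 27.1%). The secreted inhibitor DKK1 averaged 63.0 FPKM in CFPAC and 2.82 in KP3 and the ligand WNT7B 20.7 and 2.49, whereas the ligand WNT10A averaged 0.256 and 13.6 and the DKK receptor KREMEN2 1.15 and 10.6. Of 20 Notch and Hedgehog genes tested, 9 were higher in CFPAC, among them NOTCH1 (4.76 against 0.496), its glycosyltransferase LFNG (9.39 against 0.407) and the ligand JAG1 (8.67 against 3.27), and 5 higher in KP3, among them HES7 (0.947 against 6.43). GLI1, a Hedgehog target, was at 1.33, 0.953 and 1.39 FPKM in CFPAC and at 0 counts in KP3, at least 145-fold higher. PTCH1, another Hedgehog target, averaged 0.576 and 0.724 FPKM and was not tested.

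YAP and TEAD target genes leaned weakly to KP3. Of 27 tested, 13 were higher there (48.1%, all genes 27.1%). The 8 higher in CFPAC (29.6%) were near the share of all genes (29.3%). ANKRD1 was at 0.235, 1.12 and 0.315 FPKM in CFPAC and 49.5, 70.7 and 25.9 in KP3 (log2 fold change -6.55, SE 0.39, edgeR adjusted p = 0.000345), and the cofactor WWTR1 averaged 7.72 and 25.4. CCN2, another classic target, went the other way at 9.05 and 3.82.

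Drivers and suppressors of pancreatic cancer rarely differed by a large factor. Of 42 tested, 15 were higher in CFPAC and 11 in KP3, but just 2 were at least 4-fold apart (4.76% beside 15.5% of all genes). These were MAP2K4, the kinase upstream of JNK, at 0, 8 and 0 counts in CFPAC and 3.28, 4.48 and 4.83 FPKM in KP3, and the guidance receptor ROBO1, which averaged 0.0144 FPKM in CFPAC and 4.55 in KP3. CDKN2A averaged 16.2 and 28.6 FPKM, its neighbour CDKN2B 20.1 and 7.96, MYC 17.2 and 8.96 and CCND1 57.7 and 23.4. Levels of RNA do not show whether these genes are mutated.

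**Figure D4:**
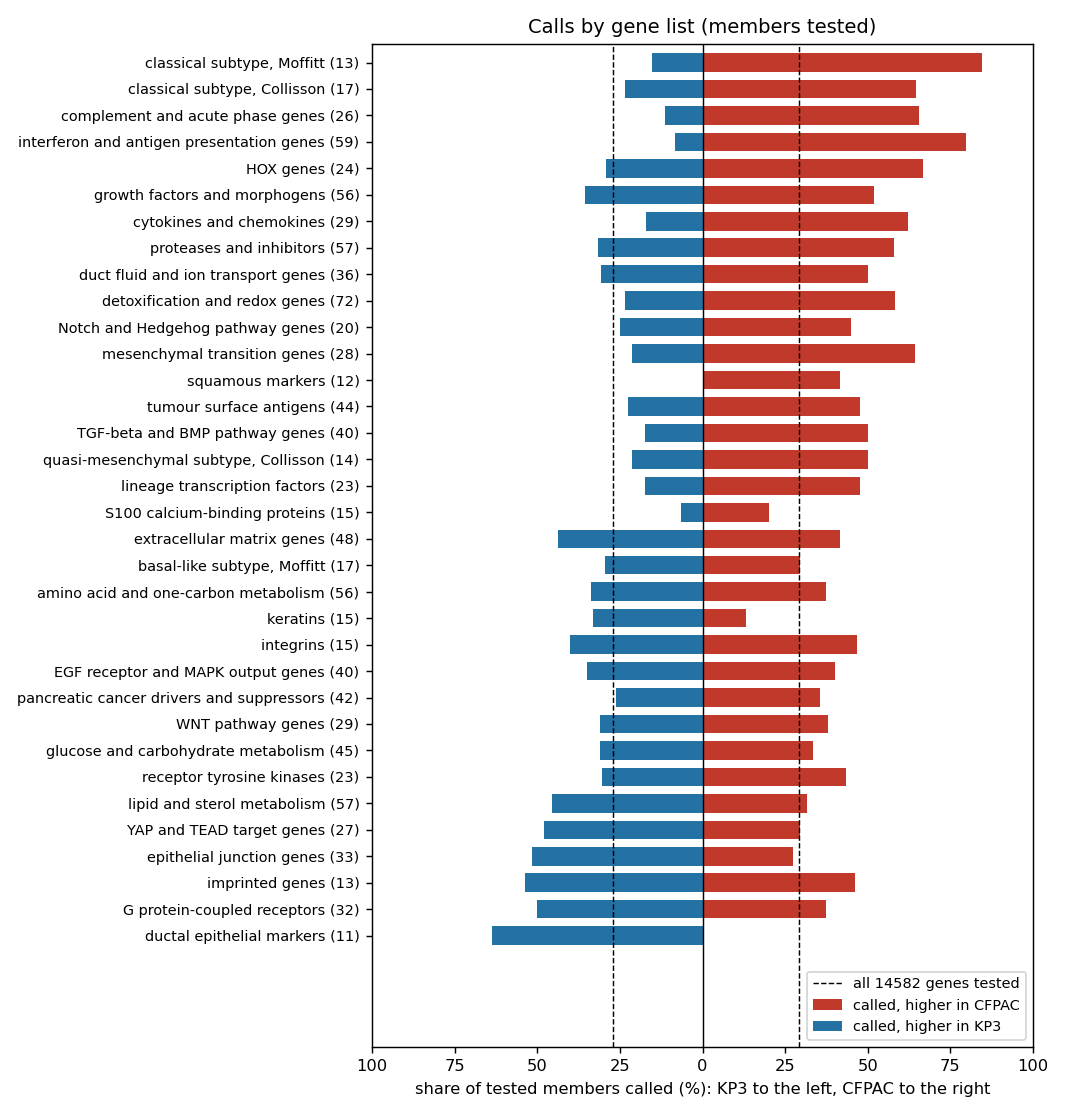
Share of the tested members of each list with 10 or more tested genes called higher in CFPAC (red, to the right) or in KP3 (blue, to the left), with the number tested in parentheses and the lists ordered by median log2 fold change. Dashed lines mark the shares over all 14582 genes, 29.3% and 27.1%; the classical and interferon lists reach 84.6% and 79.7% to the right and the duct markers 63.6% to the left.

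The lipid list was divided. Of 57 genes tested, 26 were higher in KP3 (45.6%, all genes 27.1%), 18 higher in CFPAC (31.6%, all genes 29.3%) and 13 not called. Cells raise the genes of fatty acid and cholesterol synthesis together through the SREBP factors when sterols are short. SCD, the desaturase that makes oleate, was at 109, 72.2 and 88.9 FPKM in CFPAC and 1900, 1200 and 1658 in KP3 (log2 fold change -4.09, SE 0.10, edgeR adjusted p = 9.66e-05). Fatty acid synthase, FASN, was at 8.56, 7.46 and 5.91 FPKM in CFPAC and 113, 106 and 80.9 in KP3 (log2 fold change -3.73, SE 0.10, edgeR adjusted p = 9.66e-05). Each KP3 library was above each CFPAC library for both genes.

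Of the cholesterol genes, HMGCS1 averaged 6.31 FPKM in CFPAC and 30.0 in KP3, and DHCR7 11.8 and 45.2. Outside the list, and picked out after their values were seen, SREBF1, which encodes a factor of this program, averaged 8.59 and 54.3, and INSIG1, a sterol sensor, 7.12 and 82.2. The acetate-activating ACSS2, a list member, averaged 15.8 and 63.5. ACLY (21.3 and 24.3), which makes cytosolic acetyl-CoA, was not called. The sterol element, searched as TCACNCCAC on both strands, was found in 2 of the 44 list members with an entry (4.55%), of which 1 was called higher in CFPAC and 0 higher in KP3, and in 1.22% of protein-coding genes tested.

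CFPAC was higher for genes that handle fatty acids in other ways. ACSL5, an acyl-CoA synthetase of gut and liver, was at 66.9, 92.3 and 82.6 FPKM in CFPAC and 0.165, 0.415 and 0.142 in KP3 (log2 fold change 8.52, SE 0.34, edgeR adjusted p = 0.000155). ALOX5, the first enzyme of leukotriene synthesis, averaged 11.8 and 0.0148 FPKM, the triglyceride enzyme DGAT1 17.8 and 4.14, and the sterol hydroxylase CYP27A1 3.30 and 0.0215. The malic enzyme ME1, which makes NADPH, was at 12.2, 16.9 and 16.6 FPKM in CFPAC and at 0, 4 and 0 counts in KP3.

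Detoxification genes leaned to CFPAC. Of 72 tested, 42 were higher there (58.3%, all genes 29.3%) and 17 higher in KP3 (23.6%, all genes 27.1%). Of these, 26 and 5 were at least 4-fold apart. Aldo-keto reductases reduce reactive carbonyls and steroids. AKR1B10 was at 153, 164 and 232 FPKM in CFPAC and at 13, 11 and 4 counts in KP3, a ratio of 2724 (95% interval 1884 to 4099, counting error alone). AKR1C1, AKR1C2 and AKR1C3 averaged 206, 180 and 221 FPKM in CFPAC and 0.211, 0.308 and 9.01 in KP3, and these near-identical neighbours may share reads. ALDH3A1, a corneal and tumour aldehyde dehydrogenase, averaged 76.5 and 1.40 FPKM, ALDH1A3 66.3 and 11.8, and the cystine carrier SLC7A11 19.1 and 1.68.

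Glucuronosyltransferases of the UGT1A cluster, which share their last exons, were on in CFPAC. UGT1A10 was at 38.2, 18.9 and 24.4 FPKM and UGT1A1 at 8.10, 2.95 and 4.61 in CFPAC, and both were at 0 counts in KP3, so that the cluster differed although its members cannot be told apart with confidence. NR1I2, the pregnane X receptor, a sensor of foreign compounds, was at 6.06, 5.99 and 5.76 FPKM in CFPAC and at 0 counts in KP3, at least 830-fold higher. CYP3A5, a cytochrome of gut and liver with near-identical relatives, averaged 15.1 and 0.524 FPKM.

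Not all of this group favoured CFPAC. NQO1, a quinone reductase, was at 151, 145 and 187 FPKM in CFPAC and 332, 321 and 338 in KP3 (log2 fold change -1.0, SE 0.10, edgeR adjusted p = 0.00137), GSTP1, a glutathione transferase, averaged 49.9 and 165, and NFE2L3, a relative of NRF2, 3.23 and 68.5. NFE2L2, the gene of NRF2 itself, averaged 27.9 and 15.9.

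Metallothioneins, which bind zinc and copper, were exchanged within 1 gene cluster on chromosome 16. MT2A was at 212, 260 and 226 FPKM in CFPAC and 1032, 1719 and 1097 in KP3, and MT1E averaged 77.6 and 576. MT1M was at 30.1, 56.3 and 13.9 FPKM and MT1A at 8.80, 13.4 and 9 in CFPAC, both at 0 counts in KP3, and MT1G was at 483, 682 and 627 counts in CFPAC and 6, 0 and 0 in KP3. These genes are short and near-identical, so reads may have been divided between them and each value is uncertain.

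Amino acid genes were balanced in number. Of 56 tested, 21 were higher in CFPAC (37.5%, all genes 29.3%) and 19 in KP3 (33.9%, all genes 27.1%). ASS1, which makes arginine from citrulline, was at 71.3, 67.0 and 65.0 FPKM in CFPAC and 0.371, 0.714 and 0.145 in KP3 (log2 fold change 7.58, SE 0.50, edgeR adjusted p = 0.000437). PSAT1, a serine synthesis enzyme, was at 8.39, 10.1 and 6.59 FPKM in CFPAC and at 0, 4 and 0 counts in KP3. IDO1, the interferon-induced enzyme that breaks down tryptophan, was at 8.56, 9.16 and 10.9 FPKM in CFPAC and at 0 counts in KP3, at least 865-fold higher. NNMT, which methylates nicotinamide, was at 0.270, 0.375 and 0.388 FPKM in CFPAC and 51.0, 51.4 and 31.3 in KP3 (log2 fold change -6.91, SE 0.29, edgeR adjusted p = 0.000161), and the proline dehydrogenase PRODH averaged 0.167 and 3.79.

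Of 45 glucose genes tested, 15 were higher in CFPAC, 14 in KP3 and 16 not called. The share called was 64.4%, beside 56.4% of all genes and 61.8% of protein-coding genes. Called and at least 4-fold apart were 13.3%, beside 15.5% and 14.8%. The list was thus near the background. The gluconeogenic enzyme FBP1 was at 19.2, 12.2 and 18.3 FPKM in CFPAC and at 0 counts in KP3, at least 754-fold higher. Hexokinase 1 (HK1) averaged 27.5 and 2.70 FPKM while HK2 averaged 18.4 and 19.5 and was not called. Aldolase C (ALDOC) averaged 4.30 and 29.2, and the pyruvate carrier SLC16A7 was at 0, 8 and 8 counts in CFPAC and averaged 3.79 FPKM in KP3.

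Ion and fluid transport genes of the duct leaned to CFPAC, with 18 of 36 tested higher there and 11 in KP3. The CFPAC share was above that of all genes (29.3%). The KP3 share (30.6%) was slightly above that of all genes (27.1%). The calcium-activated chloride channel ANO1 averaged 17.1 FPKM in CFPAC and 0.0605 in KP3, the water and glycerol channel AQP3 19.2 and 0.0635, the potassium channel KCNK5 39.0 and 0.436, and the cotransporter SLC12A2 7.48 and 1.35. Carbonic anhydrases differed in kind: CA9, on the membrane, averaged 28.2 and 0.113, and the cytosolic CA2 4.43 and 39.6. Of 15 S100 genes tested, 11 were not called, and the share called was 26.7%, beside 56.4% of all genes. In simulated data 58 of 150 genes changed 2-fold were found, so a missing call does not show equal levels. S100P averaged 124 FPKM in CFPAC and 4.53 in KP3, and S100A9 57.2 and 2.99.

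In all, 117 genes were at 0 counts in the 3 KP3 libraries and at 1 FPKM or more in the 3 CFPAC libraries, and 40 showed the opposite, after leaving out chromosome Y and XIST. The CFPAC set held 69 protein-coding genes and 30 long noncoding genes, and the KP3 set 24 and 11. Against a floor of 3 counts per library the median lower bound was 167-fold for the CFPAC set and 101-fold for the KP3 set. A listed 0 is not a firm absence in a single library: 465 tested records were at 0 in 1 or 2 of the KP3 libraries, and the highest of their KP3 counts had a median of 11 and a maximum of 7671.

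The CFPAC set held, beside the genes named above, the placental-type phosphatase ALPP (25.7, 23 and 20.3 FPKM, with a near-identical neighbour), the bone morphogenetic protein BMP7 (2.87, 2.24 and 3.43), the necroptosis kinase RIPK3 (2.55, 2.89 and 2.28), the gut annexin ANXA13 (12.2, 6.90 and 10.6) and the class II gene HLA-DQB1 (9.06, 8.50 and 9.43). Transcription regulators were found in both sets, with NR1I2, given above, in the CFPAC set. The KP3 set, with 24 protein-coding genes, included the developmental regulators SALL1 (4.06, 5.41 and 5.63 FPKM), EYA1 (2.61, 1.76 and 4.72), ALX1 (3.20, 2.96 and 3.47), FOXD3 (1.89, 1.12 and 1.02), FOXA2 and TFAP2C. It also held KIRREL2, a slit-diaphragm relative of nephrin (3.43, 4.98 and 5.94), and the zinc finger gene ZNF18 (4.58, 3.90 and 4.16). All values in this paragraph are FPKM in the line that expressed the gene.

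Chromosome 7 stood apart. Of 790 genes tested on it, 420 were called higher in CFPAC (53.2%, beside 29.3% of all genes) and 104 higher in KP3, with a median log2 fold change of 0.80. Of the other nuclear chromosomes, chromosome 20 was next with 46.7% higher in CFPAC and a median of 0.49. Of 37 mitochondrial records tested, 22 were higher in CFPAC (59.5%), with a median of 0.70. The KP3 side was largest on chromosome 13 (44.6% higher in KP3, median -0.48), chromosome 16 (40.5%, median -0.38), chromosome 17 (39.1%, median -0.36) and chromosome X (38.6%, median -0.39). Copy number was not measured, and its part in these shifts was not tested.

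Within chromosome 7, 16 neighbouring protein-coding genes were all called higher in CFPAC, the longest run of this kind found, with a median log2 fold change of 2.93. The next longest was 15 genes on chromosome 14 (median 1.52), and 2 runs of 12 also lay on chromosome 7 (medians 3.46 and 1.19). The longest runs higher in KP3 were of 13 genes, on chromosomes X and 17. The run of 16 lies at chromosome 7, 96120220 to 99408597, in the coordinates of the deposited table, and was looked for after the data were seen. It reads SLC25A13, SEM1, SDHAF3, ASNS, LMTK2, BHLHA15, TECPR1, BRI3, BAIAP2L1, TRRAP, SMURF1, KPNA7, a clone-named record, ARPC1A, ARPC1B and PDAP1. ARPC1A, a subunit of the actin-nucleating Arp2/3 complex, was at 969, 693 and 956 FPKM in CFPAC and 42.9, 22.5 and 52.4 in KP3 (log2 fold change 4.59, SE 0.19, edgeR adjusted p = 0.000161), and its neighbour ARPC1B at 1059, 1025 and 941 and 121, 109 and 107. TRRAP, a scaffold of histone acetyltransferases, averaged 44.4 and 1.96, and the importin KPNA7 8.87 and 0.00718.

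PDAP1, next to ARPC1B, averaged 44.4 FPKM in CFPAC and 34.7 in KP3, a log2 fold change of 0.40 (SE 0.09), and the next gene BUD31 15.5 and 19, with -0.25 (SE 0.10) and no call. Of the 10 protein-coding genes tested on each side of the run, 4 before it and 4 after it were also called higher in CFPAC. SMURF1 and ASNS, counted in the TGF-beta and amino acid lists above, belong to this run.

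No run of 3 or more neighbouring protein-coding genes was 3 counts or fewer in each library of 1 line while reaching 1 FPKM in each library of the other. On chromosome 17 the pair MAP2K4 and ZNF18 were both near or at 0 in CFPAC, while ELAC2 nearby averaged 7.87 and 7.94 FPKM and was not called. The pair was picked out after its values were seen.

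**Figure D5:**
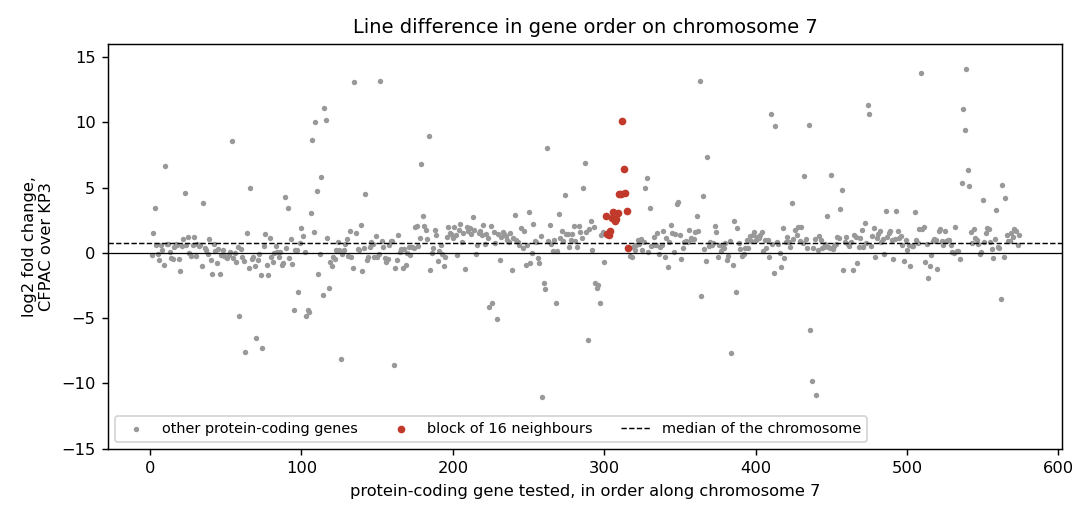
Log2 fold change of CFPAC over KP3 (y axis) for the 574 protein-coding genes tested on chromosome 7, in order along the chromosome (x axis), with the run of 16 neighbours in red and the median of the chromosome dashed. The run spans 0.40 to 10.13, and 15 of its 16 genes lie above the median of the chromosome, which is itself above 0.

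Markers of other cell types were low in most lists, with exceptions. No endothelial and no hepatocyte marker reached 1 FPKM, PTPRC reached at most 0.0420 FPKM, PECAM1 0.197 and ALB 0.0327. CD68, a lysosomal protein, carried the leukocyte list (65.6 FPKM in CFPAC, 72.3 in KP3), and CD14 averaged 5.89 and 0.129. The summed leukocyte list was 53.4 to 82.9 FPKM in CFPAC and 70.1 to 78.2 in KP3. Of 7 endocrine and neuronal markers matched, 2 reached 1 FPKM, and the list summed to 1.99 to 2.52 FPKM in CFPAC and 5.18 to 10.5 in KP3. Of 8 acinar markers 1 did, BHLHA15 (3.83 FPKM in CFPAC, 0.473 in KP3), and the list summed to 4.43 to 5.58 and 0.385 to 1.01. Of 12 fibroblast and stellate markers 6 did, and with LUM and DCN at 126 and 8.27 FPKM in CFPAC the list summed to 113 to 164 there and 10.8 to 12 in KP3.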

How the data were processed

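Poly(A) RNA was captured with oligo(dT) beads from total RNA, per the labels' protocols. The deposited table holds read counts and FPKM per gene for each library, made by the authors. The submitters' processing notes name cutadapt 1.9, HISAT2 2.0.4, StringTie 1.3.4d and edgeR; their roles, the genome build and the strand setting of the counting are not given in the sources used here. In GENCODE v29 (GRCh38) 32211 gene IDs were found, and 32205 (99.98%) overlapped it in the deposited coordinates. Without a stated strand setting, overlapping and antisense genes cannot be told apart.

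Counts of the 6 libraries were fitted with edgeR 4.0.16 (R 4.3.3): TMM normalization, a term for the line and siRNA as a block, glmQLFit and glmQLFTest, with Benjamini-Hochberg adjustment over 14582 genes. The fit had 2 residual degrees of freedom and a biological coefficient of variation of 26.2%. Totals of 59478910 to 66067379 counts per library set the precision. FPKM was used to describe levels. A gene at 0 counts in a whole line has its fold as a lower bound, against 3 counts per library; a gene with few counts in 1 line has a ratio of counts with an exact 95% interval. Floors and intervals cover counting error only, and treat each count as 1 independent read. Low counts in 1 line were often multiples of 4, such as totals of 4, 8 and 12 over 3 libraries. A count may thus not be 1 independent read, so intervals may be too narrow and lower bounds too high.

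The procedure was tested on simulated data for this comparison with 14582 genes. Of 150 genes changed at each size over 3 runs, it found 3 at 1.5-fold, 58 at 2-fold, 117 at 4-fold and 137 at 8-fold. There were 39 false calls. Few genes were changed in each simulated run, whereas 56.4% were called in the data. The adjustment depends on that share, so the numbers found at each size need not hold for the data. The alternatives were DESeq2 1.42.0, limma 3.58.1 on log2(FPKM + 1), other size factors and filters, no block, and libraries left out.

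The members and gene lists were chosen with earlier results of these data known. List members could be named beside their list, led by the called members with the largest fold changes. Also named were genes with the largest fold changes, the largest FPKM differences or 0 counts in 1 line, and genes in runs of neighbours. BUD31, CDCP1, ELAC2, FOXD3, HLA-DQB1, IFNAR1, INSIG1, MT1G, NR1I2, RIPK3 and SREBF1 were picked out beyond this rule after their values were seen. Chromosome Y genes and XIST were left out. Some genes are not reported here.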

Additional observations from a re-analysis of the deposited data

How the results depend on the processing

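Under the other settings run, 4086 to 5003 genes were higher in CFPAC and 3644 to 4516 in KP3, with all libraries and apart from the stricter filter. A mean of at least 5 FPKM left 2080 and 2042, since fewer genes were tested. DESeq2 gave 4725 and 4388, and the fit with no siRNA block 4145 and 3850. Leaving out each library in turn gave 3369 to 3510 and 2968 to 3115. The siRNA block paired the lines within a condition; each line and siRNA has 1 library, so no replicates could be paired. Genes at 0 in KP3 numbered 123 to 154 and those at 0 in CFPAC 43 to 61 when a library was left out, with 61 without the CFPAC NEK7 siRNA library against 40 with all. Requiring 5 FPKM in the other line left 26 and 2. Of 384 called genes that the naming rule gave or the text names, 355 kept direction and call under every alternative that gave a value, 29 lost the call under at least 1, and 0 reversed. Of the 412 such genes, called or not, the filter at 5 FPKM left 291 the same and 1 without its call, and gave no value for the rest. Some uncalled genes changed sign, most of them near 0 (CLDN4 had a log2 fold change of 2.04 with all libraries), and the cause was not tested. Their log2 fold changes with 1 library left out ranged as follows: CD68 -0.28 to 0.08, CLDN4 -0.28 to 3.87, DUSP4 -0.09 to 0.15, HK2 -0.15 to 0.07, HOXA3 -0.23 to 0.70, KRT14 -0.01 to 0.69, KRT15 -0.42 to 0.01, KRT17 -0.04 to 0.39, KRT5 -0.09 to 0.42, LAMB3 -0.05 to 0.11, NEK7 -0.58 to 0.33, NR5A2 -0.12 to 0.18, SMAD3 -0.08 to 0.18, SOX9 -0.16 to 0.01 and VEGFA -0.29 to 0.08. Without both control libraries the values were CD68 0.08, HK2 0.07 and HOXA3 -0.23. Without both NEK6 siRNA libraries the values were CLDN4 -0.29, DUSP4 -0.09, KRT15 0.00, KRT5 -0.03, LAMB3 -0.05 and VEGFA 0.07. With limma the values were DUSP4 -0.02, ELAC2 -0.01 and LAMB3 -0.03. Without both NEK7 siRNA libraries the values were HOXA3 -0.21, KRT14 0.00, KRT17 -0.03, KRT5 -0.08, LAMB3 -0.02, NEK7 0.34, NR5A2 0.19, SMAD3 -0.07 and SOX9 0.02. With no filter the values were LAMB3 -0.01. With filterByExpr the values were LAMB3 -0.01. With no siRNA block the values were NEK7 0.15. With DESeq2 the values were NR5A2 0.01. With DESeq2 size factors the values were NR5A2 0.01.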

Other observations

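Pathway terms of the deposited table, looked at after the data were seen, added groups not described above. Of 34 DNA replication genes tested, 25 were higher in CFPAC and 3 higher in KP3 (median log2 fold change 0.71). Of 116 cell cycle genes, 60 were higher in CFPAC and 20 in KP3 (median 0.47). The shares over all genes were 29.3% and 27.1%. Over protein-coding genes, for which these terms were read, they were 32.5% and 29.3%. The replication clamp PCNA averaged 84 FPKM in CFPAC and 15 in KP3. Ribosome genes leaned to KP3, with 54 of 130 higher there and 10 higher in CFPAC (median -0.31), as did proteasome genes, with 21 of 42 and 9 (median -0.33). Retinol metabolism genes were all called, 21 of 29 higher in CFPAC and 8 higher in KP3 (median 2.26).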
